A study of Mus musculus with 6 samples.

Results

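The C/EBP family of transcription factors was represented by 5 genes of the deposited table, Cebpa, Cebpb, Cebpd, Cebpg and Cebpz. They were taken by their symbols from 21436 listed genes. RNA sequencing covered the mouse line 3T3-L1, embryonic fibroblasts of wild-type genotype that can become adipocytes. The line grew below a Transwell membrane of 0.4 µm pores, in adipogenic medium, for 72 h. That medium held 10% serum, insulin at 10 mg/L, rosiglitazone at 2 µmol/L, dexamethasone at 1 µmol/L and IBMX, a phosphodiesterase inhibitor, at 0.5 mmol/L, so both groups were under induction and no undifferentiated cells are compared here. The upper chamber was empty in the first group (alone, 3 libraries) and held human umbilical cord mesenchymal stem cells in the second (co-culture, 3 libraries). The comparison asks how the presence of the human cells relates to expression in the preadipocytes. Whether replicates came from separate cultures is not said in the labels, and the p-values then reflect only sample-to-sample spread, possibly technical.

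C/EBP proteins carry a basic region that binds DNA and a leucine zipper (together bZIP) through which they pair with one another and with other bZIP proteins. In textbook adipogenesis the hormonal cocktail first induces C/EBPβ and C/EBPδ, with IBMX acting through cyclic AMP and dexamethasone through the glucocorticoid receptor. These 2 proteins then switch on C/EBPα and the nuclear receptor PPARγ, which maintain the adipocyte state. C/EBPγ has a bZIP domain but little activating function of its own and works through its partners, among them ATF4. Cebpz shares the name only: its product is a CCAAT-binding, nucleolar protein without a leucine zipper.

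The promoters of the 2 members that had a RefSeq promoter entry (GRCm38.p6) and were lower in co-culture are shown because they differ in their motifs. Each line gives the 250 bases before the annotated start, 5′ to 3′ along the gene's strand. For Cebpb, chr2:167688665-167688914 on the plus strand, capitals mark TGACG, the core of the cyclic AMP response element, on either strand. For Cebpg, chr7:35056567-35056816 on the minus strand, capitals mark the CCAAT box on either strand.
Cebpb: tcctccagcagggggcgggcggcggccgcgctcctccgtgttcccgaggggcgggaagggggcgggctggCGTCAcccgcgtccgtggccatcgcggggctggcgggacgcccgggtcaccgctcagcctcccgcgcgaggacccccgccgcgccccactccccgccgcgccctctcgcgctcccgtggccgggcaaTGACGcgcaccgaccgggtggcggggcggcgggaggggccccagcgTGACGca
Cebpg: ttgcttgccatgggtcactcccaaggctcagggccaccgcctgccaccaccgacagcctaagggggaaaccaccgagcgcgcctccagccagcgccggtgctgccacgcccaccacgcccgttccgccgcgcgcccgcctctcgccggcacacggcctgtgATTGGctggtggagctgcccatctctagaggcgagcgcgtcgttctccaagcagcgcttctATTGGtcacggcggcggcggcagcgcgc

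Cebpb held 3 TGACG matches, beginning 180, 53 and 7 bases before the start, and the first of these lay on the opposite strand. Among 32851 RefSeq promoter windows of the same length, 17.8% held at least 1 such match and 0.688% held 3 or more. Cebpg held none of them but held 2 CCAAT boxes, at 89 and 28 bases before the start and both on the opposite strand, where 33.8% of windows held at least 1 and 10.1% at least 2. Cebpb also held 5 matches to the GC box GGGCGG, 2 of which overlapped each other (32.7% of windows held 1 or more and 1.93% held 5 or more). The Cebpb window was 81.6% G and C and the Cebpg window 70.8%, against a median of 52.4% over all windows, and the shares above are not matched for base composition. The window of Cebpa had a TATA box, TATAAA, 30 bases before the start (12.4% of windows) and neither TGACG nor CCAAT. The C/EBP consensus TTGCNNAA (9.56% of windows), the STAT consensus TTCNNNGAA (7.02%) and the C/EBP-ATF element TGATGNAA (3.45%), searched on both strands, were not in the windows of Cebpa, Cebpb or Cebpg. These are letter matches in a short window and say nothing of whether a factor binds there.

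In those coordinates, counted from 1, Cebpb is a gene of a single exon on chromosome 2 from 167688915 to 167690432. Cebpd lies on chromosome 16 from 15887286 to 15889545 and Cebpz on chromosome 17 from 78919003 to 78937070. Cebpg, from 35046422 to 35056566, and Cebpa, from 35119293 to 35121928, are neighbours on chromosome 7, 62726 bases apart and on opposite strands. The gene lengths recovered from the FPKM values were 1518 bp for Cebpb, 2260 bp for Cebpd and 2636 bp for Cebpa, the same as the RefSeq spans of these genes.

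Levels are given in FPKM, fragments scaled to gene length and to library size, which allows genes of different length to be compared. The order of the levels was the same in every library: Cebpb, then Cebpd, Cebpz, Cebpg and, far below, Cebpa. No neighbours in that order overlapped within a group. Over the 6 libraries Cebpb had a mean of 211.3 FPKM and lay above 97.5% of the 10055 genes that were tested (those averaging 1 FPKM or more). Cebpd, at 107 FPKM, lay above 95.1% of them, while Cebpz lay above 75.5% and Cebpg above 61.4%. Cebpa, at 0.2445 FPKM, was under the limit of 1 FPKM.

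**Figure D1:**
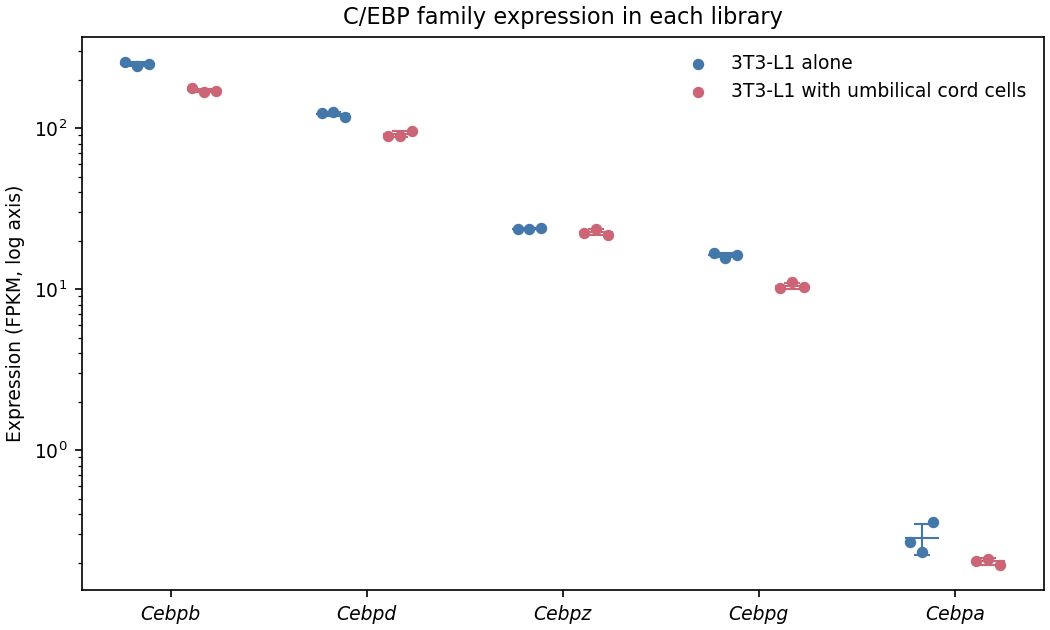
Expression of the 5 C/EBP genes in each library (FPKM, log axis). Points are libraries, horizontal marks are group means and bars are the SD of 3 libraries. Cebpb, Cebpd and Cebpg sit lower in all 3 co-culture libraries than in any library of cells alone, and the Cebpz groups overlap.

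Of the 4 members that could be tested, Cebpb, Cebpd and Cebpg fell in co-culture and 0 rose (limma on log2(FPKM + 1), Benjamini-Hochberg adjusted p below 0.05 over the 10055 genes). Among all tested genes 31.8% were called, 17.9% lower and 13.9% higher. The median log2 change was −0.48 over the 4 members and −0.004 over all tested genes. Log2 changes below are co-culture minus alone on the log2(FPKM + 1) scale with their standard errors (SE), and fold changes are ratios of mean FPKM.

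Cebpb, the early factor that starts the adipogenic cascade, was at 257.5, 243.8 and 251.7 FPKM in the 3 libraries of cells alone, listed here and below by replicate number. In co-culture it was at 176.4, 168.5 and 169.8 FPKM. Every library of cells alone was well above every co-culture library. The means of 251 ± 6.86 and 171.6 ± 4.26 FPKM (SD, n = 3) gave a 1.46-fold lower level in co-culture. The log2 change was −0.55 (SE 0.0362, 95% interval −0.63 to −0.47, limma adjusted p = 3.56e-06), and 98.8% of tested genes had a higher log2 change. The log2(FPKM + 1) scale shrinks the changes of weakly expressed genes, which this share and those given below do not allow for. One Cebpb mRNA is translated into long activating and short inhibitory proteins from different start codons, which gene-level FPKM cannot tell apart.

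Cebpd, which acts beside Cebpb early in induction, was at 123.5, 125.3 and 117.8 FPKM alone and at 89.56, 89.24 and 96.53 FPKM in co-culture. All 3 libraries of cells alone were above all 3 of co-culture. Cebpd was 1.33-fold lower (122.2 ± 3.93 to 91.78 ± 4.12 FPKM, SD, n = 3; log2 change −0.41, SE 0.0413, 95% interval −0.50 to −0.32, limma adjusted p = 5.56e-05). Of all tested genes 97.4% had a higher log2 change.

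Cebpg, the partner without a strong activating domain, had the lowest log2 change of the family. It was at 16.77, 15.7 and 16.29 FPKM alone and at 10.14, 11.01 and 10.32 FPKM in co-culture, again without overlap. The fall was 1.55-fold (16.25 ± 0.534 to 10.49 ± 0.462 FPKM, SD, n = 3; log2 change −0.59, SE 0.0463, 95% interval −0.69 to −0.48, limma adjusted p = 1.11e-05). Of all tested genes 99.0% had a higher log2 change, although Cebpg is expressed at a far lower level than Cebpb. The groups of Cebpb, Cebpd and Cebpg thus did not overlap, which held for 46.1% of all tested genes (24.8% with co-culture lower).

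Cebpa, the factor of the later adipocyte stage, was barely detected in either group. Its reads numbered 27, 22 and 36 without the human cells and 16, 21 and 19 with them. These correspond to 0.27, 0.2311 and 0.356 FPKM alone and 0.205, 0.2118 and 0.1931 FPKM in co-culture. The libraries of cells alone were all above those of co-culture, but alone replicate 2 only slightly. In the fit without the limit on low genes the log2 change was −0.09 (SE 0.0369, limma adjusted p = 0.192), and Cebpa was not called, where 10.2% of 21436 genes were. The log2(FPKM + 1) scale compresses so low a gene: the means of 0.2857 ± 0.0639 and 0.2033 ± 0.00947 FPKM (SD, n = 3) differ 1.41-fold. With a pseudocount of 0.01 the log2 change was −0.45, and on the recovered reads it was −0.46 (limma-voom adjusted p = 0.446), neither of them called.

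Cebpz, the nucleolar member, was at 23.62, 23.6 and 23.95 FPKM alone and at 22.38, 23.66 and 21.8 FPKM in co-culture. Co-culture replicate 2 lay within the range of cells alone and the other two lay below it. The log2 change of −0.07 (SE 0.0404, limma adjusted p = 0.231) did not pass the test, and its 95% interval ran from −0.16 to 0.02. That interval does not reach the log2 changes of the 3 members that fell.

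**Figure D2:**
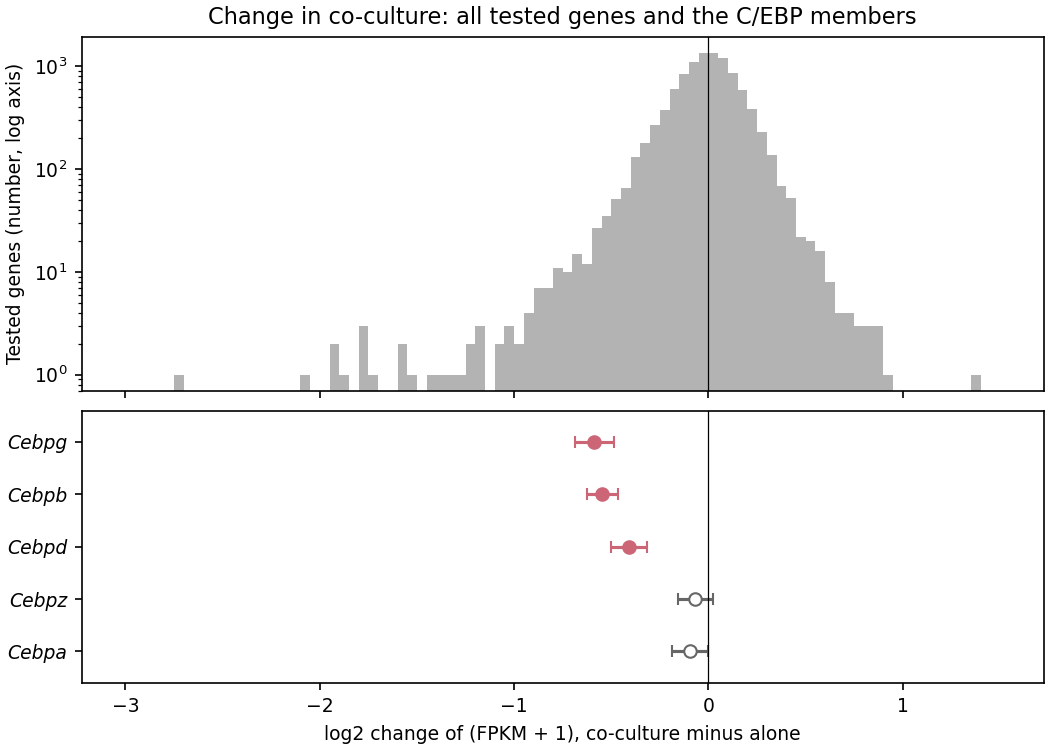
Upper panel, number of tested genes (log axis) by log2 change of FPKM + 1, co-culture minus alone; lower panel, the 5 members with 95% intervals from limma (filled, adjusted p below 0.05; Cebpa from the fit that includes low genes). Cebpg (−0.59), Cebpb (−0.55) and Cebpd (−0.41) lie in the lower tail of all genes, and Cebpz (−0.07) and Cebpa (−0.09) near 0.

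The family total, mostly Cebpb and Cebpd, was lower in co-culture. The summed FPKM of the 4 bZIP members was 398.1, 385.1 and 386.2 for cells alone and 276.3, 269 and 276.9 for co-culture. The make-up of that total moved little. Cebpb made up 64.4 ± 0.966% of it alone and 62.61 ± 1.26% in co-culture, Cebpd 31.35 ± 1.06% and 33.49 ± 1.26%, and Cebpg 4.17 ± 0.0795% and 3.831 ± 0.231% (SD, n = 3). Cebpa was under 0.1% of the total in every library. The ratio of Cebpb to Cebpd FPKM was 2.056 ± 0.0988 alone and 1.872 ± 0.106 in co-culture, with overlapping ranges. The ratio of Cebpd to Cebpg was 7.524 ± 0.399 alone and 8.762 ± 0.627 in co-culture, and here the ranges of 7.229 to 7.978 and 8.102 to 9.35 did not overlap. These ratios are descriptions over chosen members and were not tested.

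**Figure D3:**
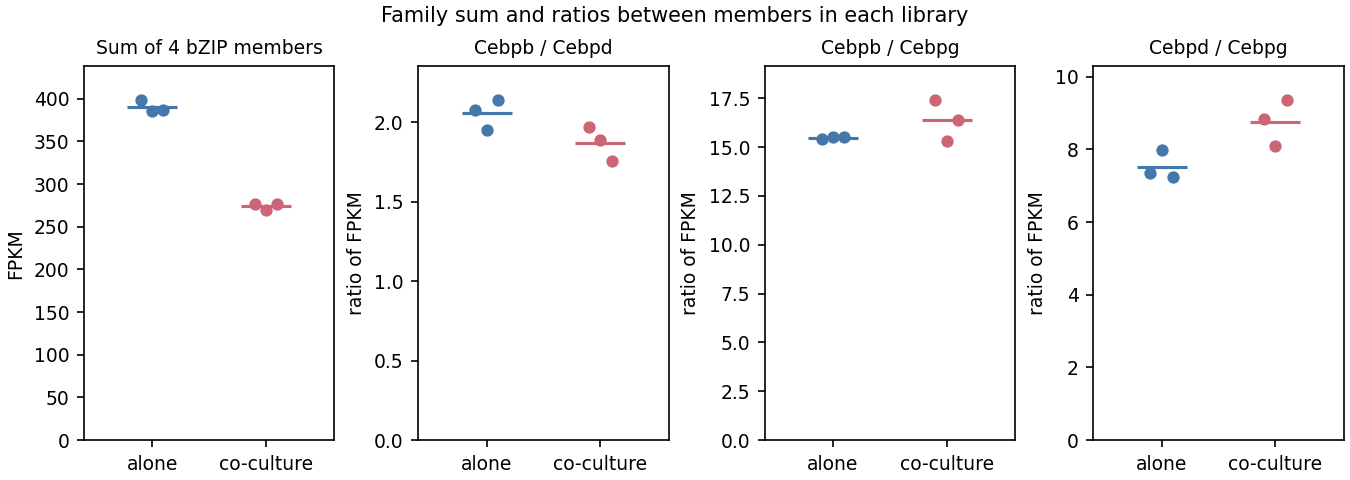
Sum of the FPKM of Cebpa, Cebpb, Cebpd and Cebpg, and 3 ratios between members, in each library (points; lines are group means; axes start at 0). The sum is lower in all 3 co-culture libraries (269 to 276.9 FPKM) than alone (385.1 to 398.1 FPKM), while the Cebpb to Cebpd and Cebpb to Cebpg ratios overlap between the groups.

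All 5 members share exon sequence with another gene in GENCODE M21, in each case with at least 1 on the opposite strand, and the sources used here do not state whether counting used strand, so such reads cannot be assigned with certainty. Cebpb overlaps Tmem189 by 312 bases, and Tmem189 was 1.22-fold lower (13.8 ± 0.831 to 11.27 ± 0.333 FPKM, limma adjusted p = 0.00251). Cebpd overlaps Spidr by 562 bases, and Spidr was 1.15-fold lower (22.83 ± 0.507 to 19.82 ± 0.478 FPKM, limma adjusted p = 0.00351). Cebpz overlaps Cebpzos, its opposite-strand gene, by 171 bases. Cebpzos averaged 11.55 ± 0.96 FPKM alone and 11.54 ± 0.581 in co-culture (limma adjusted p = 0.993). Cebpa overlaps Gm45091 on the opposite strand by 51 bases, and Cebpg overlaps Gm44836 on the same strand by 73 bases, where strand could not separate them. Neither of these overlapping genes was analysed here. Cebpg also overlaps Gm45095 on the opposite strand by 4 bases, and Gm45095 was listed at under 0.15 FPKM in every library.

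Fibroblast and preadipocyte markers were expressed in both groups. All 10 fibroblast and preadipocyte markers examined, among them Pdgfra, Col1a1 and Vim, passed the limit of 1 FPKM, and their summed level was 4240 to 4380 FPKM alone and 4330 to 4370 FPKM in co-culture (5 higher, 2 lower). A panel of 8 mature adipocyte markers was nearly absent. Its 6 listed genes, among them Adipoq, Plin1 and Cidec, had 14 reads in all alone and 20 in co-culture. Outside that panel the adipocyte genes Fabp4, Lpl and Scd1 were expressed, at 53.41, 226 and 203.4 FPKM alone. In co-culture they were at 58.19, 190.5 and 149.8 FPKM. Of the 14 listed adipocyte targets of C/EBP proteins, 8 were below 1 FPKM. Endothelial and epithelial markers had 34 and 30 reads. Library totals recovered from the FPKM values were 29603755 to 38357563 reads. In such bulk libraries fewer cells of a type and less RNA per cell cannot be told apart.

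Cebpe, the C/EBP gene of granulocytes, is no member of the set examined and had 4, 0 and 1 reads alone and 1, 0 and 4 in co-culture. At these numbers no difference was detectable, since 3 reads is the limit that a count of 0 allows. The 14 myeloid, neutrophil and red cell markers summed to 21.3 to 37.1 FPKM alone and 7.54 to 22.4 FPKM in co-culture, while the pan-leukocyte gene Ptprc had 7 and 3 reads and the macrophage gene Adgre1 had 1 and 1. Of these markers 5 could be tested and 2 fell, the haemoglobin genes Hbb-bs (limma adjusted p = 0.00697) and Hba-a1 (0.0407). Reads of Hbb-bs were 81, 49 and 134 alone and 0, 24 and 35 in co-culture. Those of Hba-a1 were 42, 34 and 49 alone and 0, 19 and 34 in co-culture. S100a9, Mpo, Elane and Ltf also had 0 reads in co-culture replicate 1. Hba-a1 lost its call without alone replicate 1 (limma adjusted p = 0.0905), 2 (0.0631) or 3 (0.109) or co-culture replicate 2 (0.0611), and with array weights (0.0531), without the variance trend (0.0639), without the limit on low genes (0.242) and at pseudocounts of 0.1 (0.0936) and 0.01 (0.141). Hbb-bs lost it without that limit (limma adjusted p = 0.103) and at a pseudocount of 0.01 (0.0724). Cebpa and Cebpb are also myeloid factors, and the part of such transcripts in their values was not tested.

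The bZIP partners fell along with the family or did not pass the test. Of 10 tested relatives and partners 5 fell and 0 rose, with a median log2 change of −0.18. As a background to this list and those below, 31.8% of all tested genes were called, 17.9% lower and 13.9% higher. Ddit3 (CHOP), a C/EBP relative that forms inactive dimers with the others, was at 27.46, 25.57 and 26.9 FPKM alone and 20.21, 18.89 and 18.12 FPKM in co-culture, a 1.40-fold fall (limma adjusted p = 6.17e-05). Its groups did not overlap. Atf4, the stress-response partner of C/EBPγ, fell 1.19-fold (510.4 ± 13.7 to 428.5 ± 7.36 FPKM, limma adjusted p = 6.14e-04). Atf5 fell 1.33-fold, Nfil3, a bZIP repressor, fell 1.41-fold, and Fos fell 2.95-fold. Jun, Creb1, Atf2, Atf3 and Dbp did not pass the test. Batf, Batf2, Batf3 and Cebpe were below 1 FPKM. Without alone replicate 2, 1 of the tested partners was called higher.

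The genes through which cyclic AMP and glucocorticoid reach Cebpb and Cebpd mostly did not pass the test: 2 of 13 fell and 1 rose, with a median log2 change of −0.02. Creb1, the factor that binds cyclic AMP response elements, averaged 8.354 ± 0.278 FPKM alone and 7.632 ± 0.179 in co-culture (limma adjusted p = 0.0823). Nr3c1, the glucocorticoid receptor, was at 8.654 ± 0.306 and 9.166 ± 0.365 FPKM (limma adjusted p = 0.268). The phosphodiesterase genes Pde4d (1.32-fold) and Pde4b (1.16-fold) fell. The coactivator gene Crtc1 rose 1.2-fold (limma adjusted p = 0.0272). That call was lost without any library other than alone replicate 2 (limma adjusted p 0.0502 to 0.0893) and without the limit on low genes (0.0855). It was also lost with the replicate number as a block (limma adjusted p = 0.0505; 0.0746 with GC content and length correction besides).

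The interleukin-6 family ligands, which induce Cebpb and Cebpd through STAT3, were much lower, while their receptors and kinases were mostly not called. In that arm 5 of 13 tested genes fell and 0 rose, and the median log2 change was −0.03. Lif fell from 13.99 ± 0.0991 to 1.267 ± 0.125 FPKM, Il6 from 32.55 ± 3.14 to 8.203 ± 1.25 FPKM and Il11 from 5.114 ± 0.437 to 1.904 ± 0.116 FPKM. Socs3, the feedback inhibitor of this pathway, fell 3.73-fold and the oncostatin receptor gene Osmr 1.22-fold. Stat3 itself averaged 72.48 ± 1.64 FPKM alone and 68.94 ± 3.09 in co-culture (limma adjusted p = 0.197). The shared receptor Il6st was at 175.7 ± 8.66 and 179.1 ± 4.52 FPKM (limma adjusted p = 0.640). Without alone replicate 2, 1 gene of this arm was called higher.

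Early adipogenic factors went both ways. Of 8 tested, Klf6 (1.88-fold) and Stat5a (1.28-fold) rose and Klf4 (1.88-fold) and Klf5 (1.35-fold) fell. The call of Klf5 was lost without the limit on low genes (limma adjusted p = 0.0526). Klf4 binds the Cebpb promoter together with Egr2 (Krox20), and Egr2 averaged 2.791 ± 0.159 FPKM alone and 2.395 ± 0.148 in co-culture (limma adjusted p = 0.0727). Over all tested genes 31.8% were called, 17.9% lower and 13.9% higher. Among 20 kinases and other modifiers of C/EBP proteins, 7 fell and 0 rose, with a median log2 change of −0.06. Trib3, a pseudokinase and target of CHOP, fell most (1.57-fold, 47.49 ± 1.54 to 30.25 ± 1.22 FPKM, limma adjusted p = 3.29e-06). Ccna2, which activates CDK2, fell 1.27-fold, the arginine methyltransferase gene Prmt1 1.21-fold and Trib2, which promotes C/EBPα degradation, 1.16-fold. The call of Trib2 (limma adjusted p = 0.0174) was lost without alone replicate 3 (0.0613) and without the limit on low genes (0.0964). The 7 numbered 3 without alone replicate 3 and 4 without co-culture replicate 1, and 1 modifier was called higher without alone replicate 1.

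Adipocyte genes bound by C/EBP proteins were largely below the limit: 6 of the 14 listed could be tested, 2 fell and 0 rose. Scd1 (1.36-fold) and Lpl (1.19-fold) fell. Fabp4 averaged 53.41 ± 3.04 FPKM alone and 58.19 ± 0.74 in co-culture (limma adjusted p = 0.0508). It was called higher without alone replicate 1 (limma adjusted p = 0.0152), with GC content and length correction (0.00477; 0.0122 with the replicate block besides), array weights (0.0152), quantile (0.0196) or TPM scaling (0.0457) and a limit of 5 FPKM (0.0457), so the count of 0 risen targets rests on these choices. Pparg, the nuclear receptor downstream of Cebpb and Cebpd, was at 0.6879 ± 0.074 and 0.5647 ± 0.0989 FPKM (262 and 202 reads), a low level like that of Cebpa. Adipoq had 1 read alone and 0 in co-culture. Without alone replicate 1 the fallen targets numbered 4, and without it or alone replicate 2 there was 1 risen target.

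Acute-phase and cytokine targets of C/EBPβ and C/EBPδ also moved in both directions, with 9 of 14 tested genes lower and 4 higher and a median log2 change of −0.31. Csf3 (4.55-fold), Ptgs2 (3.60-fold), Il6 (3.97-fold) and Cxcl1 (2.08-fold) fell. Il6 is counted both here and in the LIF and interleukin-6 arm above. The acute-phase genes Saa3 (1.39-fold), Ptx3 (1.5-fold) and Lcn2 (1.2-fold) fell, whereas Orm1 (1.37-fold), Orm2 (1.5-fold) and C3 (1.18-fold) rose. Orm2 was weakly expressed, at 1.058 FPKM alone and 1.586 FPKM in co-culture. Igf1, in this list but not an acute-phase gene, rose 1.98-fold. Hp, haptoglobin, did not pass the test (limma adjusted p = 0.116).

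In the amino acid and redox list, of genes linked to ATF4 and C/EBPγ, 18 of 20 tested genes fell and 0 rose. Their median log2 change was −0.53. This list, like the others, was chosen with earlier results of these data known, and joint regulation by the 2 factors was not tested. Cth, which makes cysteine, fell 2.34-fold (44.84 ± 2.35 to 19.17 ± 0.471 FPKM, limma adjusted p = 5.85e-08). The mitochondrial folate enzyme gene Mthfd2 fell 1.83-fold, Shmt2 1.67-fold and the serine synthesis gene Psat1 1.46-fold. The cystine transporter gene Slc7a11 fell 2.46-fold. Sesn2 (limma adjusted p = 0.971) and Gclm (0.375) did not pass the test, and Stc2 was below 1 FPKM.

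Around Cebpz, 7 of 12 tested nucleolar and NF-Y genes fell and 0 rose, with a median log2 change of −0.15. Nop14 (1.34-fold), Noc4l (1.28-fold), Bop1 (1.14-fold) and Ebna1bp2 (1.18-fold), all ribosome assembly factors, fell. Noc3l also fell, 1.18-fold (limma adjusted p = 0.0169). Noc2l, another gene of that list, averaged 9.623 ± 0.325 FPKM alone and 9.776 ± 0.681 in co-culture (limma adjusted p = 0.816). The 7 numbered 4 without alone replicate 2.

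**Figure D4:**
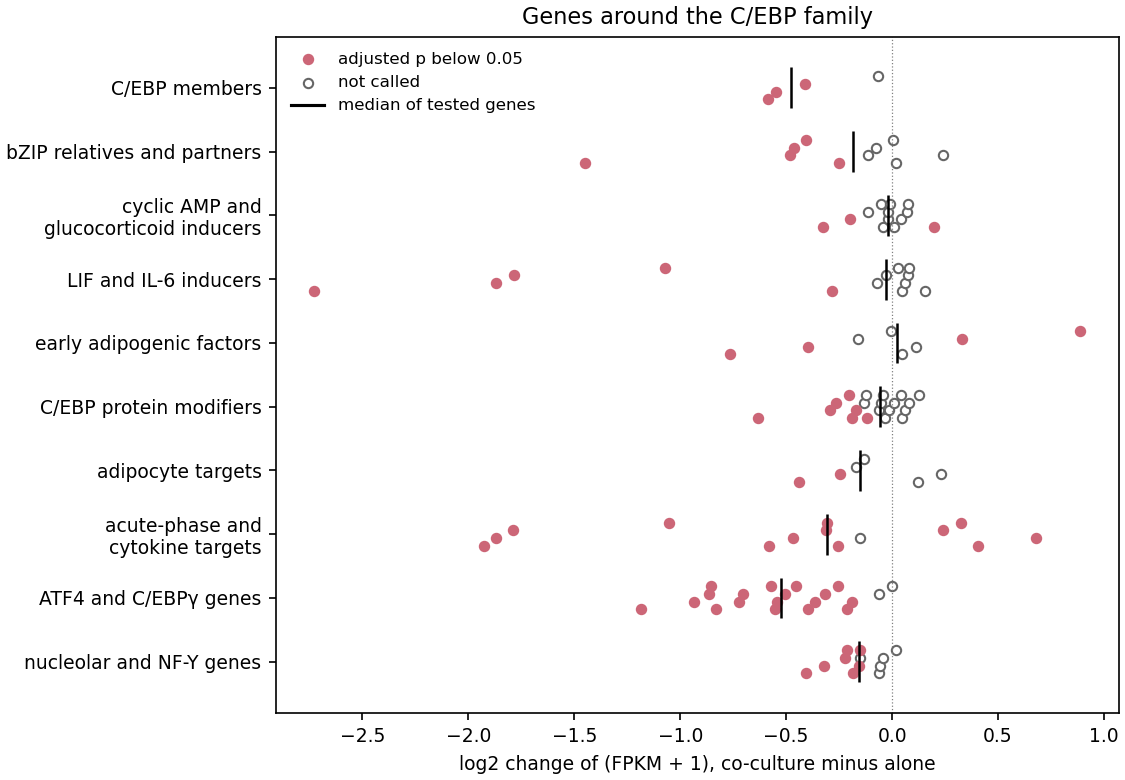
Log2 change of FPKM + 1, co-culture minus alone, for the tested genes of the C/EBP set and 9 lists around it (points are genes, filled where limma's adjusted p is below 0.05; black lines are list medians). The amino acid and redox list has its median at −0.53 and the C/EBP members at −0.48, while the cyclic AMP and LIF arms have medians near 0. The LIF arm reaches down to −2.73 and the cyclic AMP arm spans only −0.33 to 0.20.

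Genes whose profile over the 6 libraries was nearest to each tested member were found among 6718 genes averaging 5 FPKM or more, by the root mean square difference of log2(FPKM + 1) after centring each gene on its mean. For Cebpb they were Coq10b (0.0242), Wsb1 (0.027), Nfe2l2 (0.0309) and Psat1 (0.0343). Nfe2l2 (0.0386) and Psat1 (0.0399) were also among the nearest to Cebpg, after Chchd4 (0.0229) and Mdfic (0.0383). For Cebpd they were Pgam1 (0.0201), Itga5 (0.0292), Bcat2 (0.0312) and Gcnt2 (0.0363), and for Cebpz they were Ipo4 (0.011), Tob1 (0.0113), Psmd12 (0.0138) and Paip2b (0.0161). Nfe2l2, which encodes the oxidative stress factor NRF2, averaged 89.29 ± 1.3 FPKM alone and 59.02 ± 0.234 in co-culture. The log2 changes were −0.59 for Nfe2l2 and −0.54 for Psat1, against −0.55 for Cebpb and −0.59 for Cebpg. A small distance requires a similar change between the groups, and shared regulation was not tested.

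**Figure D5:**
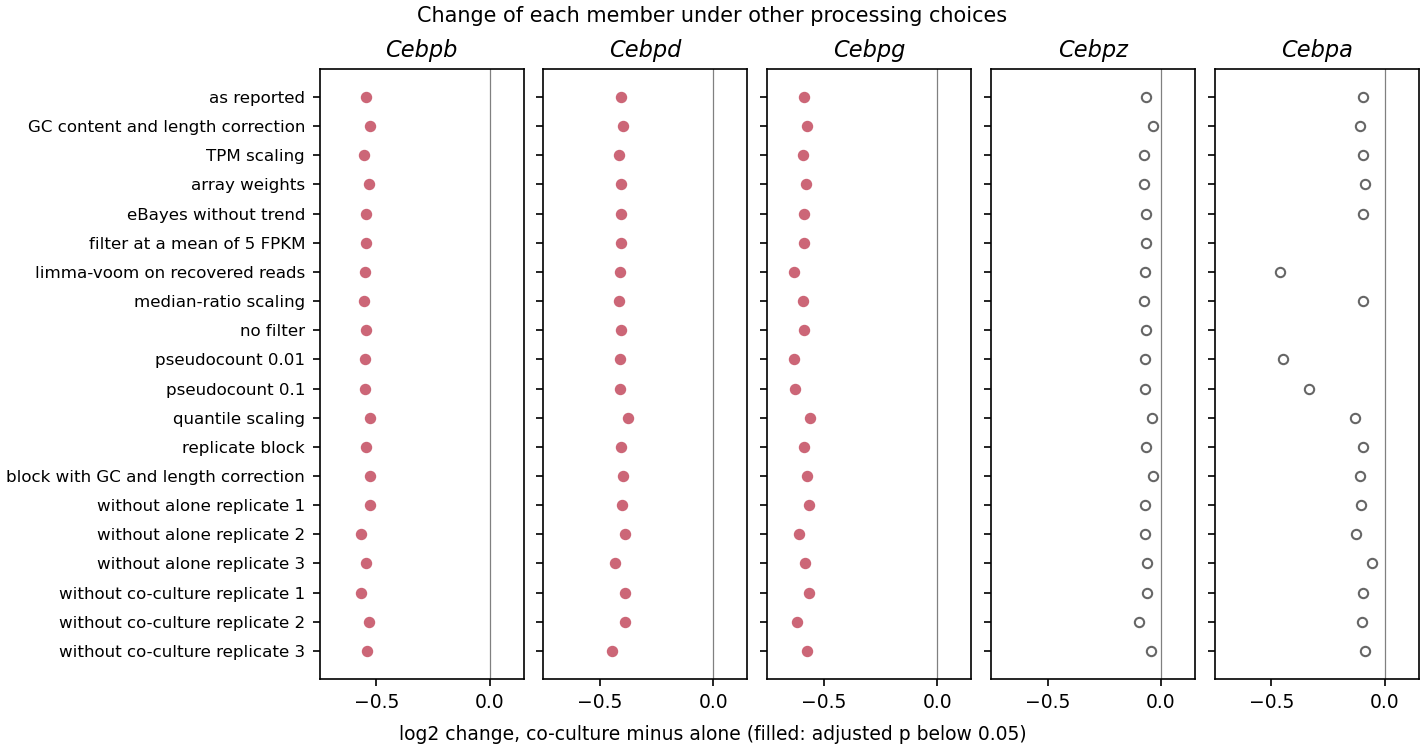
Log2 change of each member, co-culture minus alone, as reported and under other processing choices (rows; filled where the adjusted p is below 0.05). Cebpb stays between −0.57 and −0.53, Cebpd between −0.45 and −0.38 and Cebpg between −0.63 and −0.56, while Cebpa ranges from −0.46 to −0.06 and Cebpz from −0.10 to −0.04, neither called.

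The falls of Cebpb, Cebpd and Cebpg were called in each of 20 other settings, which included leaving out every library in turn. The largest adjusted p among these settings was 0.00162 for Cebpb, 0.00503 for Cebpd and 0.00201 for Cebpg. Leaving out 1 library moved the log2 change to between −0.57 and −0.53 for Cebpb, −0.45 and −0.39 for Cebpd, and −0.62 and −0.56 for Cebpg.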

How the data were processed

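The authors deposited 1 FPKM value per gene and library (6 value columns, matched to samples by name). Per the submitters' processing notes, reads passed through fastp, HISAT2 and HTSeq with mm10 as the genome. Neither tool versions, annotation nor strand setting were given in the sources used here. Whole reads were recovered from the steps of the deposited FPKM values for all 21436 genes (tolerance 1e-06), scaled by the 1545 bp of mt-Co1. The recovered totals (29603755 to 38357563) serve as depth, and the floor of 3 reads covers counting error only.

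The test was limma 3.58.1 in R 4.3.3 (trend, no block) on log2(FPKM + 1) for the 10055 genes averaging 1 FPKM or more, with Benjamini-Hochberg adjustment and a threshold of 0.05. Cebpa and other low genes took their adjusted p from the fit without that limit. The fit was also run on simulated reads with the same dispersion for every gene, and no result here rests on that run. The members and the gene lists were chosen with earlier results of these data known. Of 175 list genes, 169 were in the table. Named were the members, up to 4 called genes of each list by smallest p, fixed examples, nearest profiles and overlapping genes. Other list genes are examples chosen after their values were seen. Alternatives were other pseudocounts, filters, scalings, weights, thresholds, a replicate block, a correction for GC content and length, limma-voom on recovered reads, and leaving out each library. Promoter sequences and coordinates are from RefSeq (GRCm38.p6, the mm10 assembly), exon overlaps from GENCODE M21.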

Additional observations from a re-analysis of the deposited data

How the results depend on the processing

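No choice tried changed the call of any of the 5 members. With the replicate number as a block the log2 changes were −0.55 for Cebpb (limma adjusted p = 4.53e-05), −0.41 for Cebpd (5.94e-04), −0.59 for Cebpg (1.48e-04), −0.07 for Cebpz (0.277) and −0.09 for Cebpa (0.278). Same-numbered libraries did not deviate together across genes (correlations −0.04, 0.11 and −0.08, against −0.12 to 0.17 for differently numbered ones). With 3 libraries per group this cannot show whether same-numbered libraries were paired. The block ended only the call of Crtc1 among named genes (limma adjusted p = 0.0505). With GC content and length correction besides the block, the log2 changes of the members in the same order were −0.53, −0.40, −0.57, −0.04 and −0.11. At an adjusted p below 0.01, 635 of all tested genes were higher and 1073 lower. Leaving out 1 library gave 925 to 1419 higher and 1374 to 1753 lower. Called genes in the lists ranged, over the libraries left out, from 0 to 1 higher among bZIP partners, 0 to 1 higher in the LIF and interleukin-6 arm, 0 to 1 higher in the cyclic AMP arm, 0 to 1 higher and 3 to 7 lower among protein modifiers, 0 to 1 higher and 2 to 4 lower among adipocyte targets, 4 to 7 lower among nucleolar genes, 3 to 5 higher and 1 to 3 lower among fibroblast markers, and 1 to 4 lower among myeloid and red cell markers (1 at a pseudocount of 0.1). Cebpzos, near 0 throughout, changed sign with TPM (−0.005) and median-ratio scaling (−0.007), the cause of which was not tested, and ranged from −0.046 to 0.061 when 1 library was left out. Depth limits Cebpa, with 85 reads alone and 56 in co-culture, and Cebpe.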
